A study of Danio rerio with 6 samples.

Results

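Zinc, iron and copper handling genes were examined in the guts of germ-free zebrafish larvae that carried or lacked *il26*, the gene of the cytokine interleukin 26. The genes were chosen by a rule on their symbols, which was set with earlier results of these data known. Every row whose symbol began with slc30a, slc39a, slc11a, slc31a, slc40a, fth1 or fthl was taken, with *mt2*, *tfa*, *tfr1a*, *tfr1b*, *tfr2*, *cp*, *hephl1a*, *atp7a*, *steap4* and *aco1*. This gave 38 of the 15419 genes listed, of which 18 handle zinc, 17 handle iron and 3 handle copper, and 36 of the 38 had enough reads to be tested, among 11062 genes tested in all. The rule also named *heph*, *hephl1b*, *atp7b* and *ireb2*, and *slc39a4* and *slc30a8* would have met it. These 6 genes were not analysed here.

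Bulk RNA-sequencing was performed on guts dissected at 5 days post fertilisation, with 3 libraries per genotype and 10 to 15 guts pooled in each library. WT GF larvae were wild-type fish of the AB background, and *il26*-/- GF larvae came from a line of that background in which *il26* had been disrupted by CRISPR/Cas9. Both groups had been made germ-free in the same way, by bleaching the eggs and raising the larvae in sterile medium with ampicillin, kanamycin, ceftazidime and chloramphenicol, so no group without antibiotics or with bacteria was compared. Adult fish of the 2 genotypes were kept in separate tanks, and genotype and parental tank therefore cannot be told apart. A pool of guts holds every cell type of the organ and of tissue dissected with it, and a lower level of a transcript can come from fewer cells of a type or from less RNA per cell, which cannot be told apart here.

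Cells keep zinc, iron and copper within narrow limits, since each metal is a cofactor of many enzymes and harmful when free. Zinc enters the cytosol through Zip proteins (slc39a genes) and leaves it, or is loaded into vesicles, through ZnT proteins (slc30a genes). In the gut, iron is taken up by the transporter Slc11a2, held in the cytosol by ferritin and released to the blood by ferroportin (Slc40a1), after which transferrin carries it to cells that bear transferrin receptors. Ferritin is controlled by iron largely through translation of its mRNA, which transcript levels do not record.

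The libraries held 7528412 to 38143258 counts, and the smallest was *il26*-/- GF replicate 1. A total of 3 counts, taken as the detection floor, corresponded to 0.0765 to 0.369 counts per 1000000 scaled counts of the library (CPM). *il26* itself had 0 counts in all 6 libraries, WT GF included, so the reads gave no check of the genotype. The summed level of 12 enterocyte marker genes was 42700 to 52700 CPM, although *fabp2* of that list lay at only 0.485 to 0.839 CPM. RNA of neighbouring organs was also present, with hepatocyte markers at 3790 to 9920 CPM and exocrine pancreas markers at 41800 to 68000 CPM. Of 12 skeletal muscle markers tested, 7 were higher in *il26*-/- GF guts at an unadjusted edgeR p-value under 0.05 (58.3%, against 3.06% of all genes in that direction), 6 of them without overlap, 0 passed after adjustment, and the median log2 fold change was 0.60. The other direction was seen in 3 of the 12, *mylpfb* (-0.97), *tnni2a.4* (-0.79) and *pvalb1* (-0.63), none past the unadjusted threshold. The summed level of the muscle markers was 819, 705 and 1640 CPM in WT GF and 1320, 2350 and 1450 CPM in *il26*-/- GF libraries. The part of muscle RNA in the values below was not tested. Of 10 epidermis markers tested, 2 were lower (20%, against 2.27% of all genes) and 1 was higher (10%, against 3.06%) at that threshold. After adjustment 0 passed. The 2 lower ones were high in WT GF replicate 3, with *krtt1c19e* at 47.4, 22.6 and 226 CPM and *cyt1l* at 18.5, 7.44 and 56.1 CPM in WT GF replicates 1 to 3. Erythrocyte markers summed to 89.6 to 129 CPM with *gata1a* at 0, and macrophage markers to 31.2 to 38 CPM with *mpeg1.1*, *c1qa*, *c1qb* and *c1qc* at 0. All levels here and below are CPM scaled by the TMM method, which corrects for library size and for composition. They are not divided by gene length, so the CPM of 2 genes do not rank their levels. Where 1 gene is given as a percentage of another, that percentage is compared only between libraries.

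Metal handling genes as a whole differed little between the genotypes. Of the 36 genes tested, 19 were above and 17 below 0 in the log2 fold change of *il26*-/- GF over WT GF, and 30 lay within 0.5 of 0. Their median log2 fold change was 0.020, against -0.0011 over all genes tested, and 47.2% of them were below 0, against 50.4% of all genes tested. With libraries scaled by total counts only, which moved the median of all genes to 0.084, 26 members were above and 10 below 0. In edgeR's quasi-likelihood test, 7 genes (19.4%) reached an unadjusted p-value under 0.05, compared with 5.32% of all genes tested. Of these, 6 were lower in *il26*-/- GF guts (16.7%, against 2.27% of all genes) and 1 was higher (2.78%, against 3.06% of all genes). None of the 36 passed after Benjamini-Hochberg adjustment over all genes, where the smallest adjusted p-value was 0.643 and 1 gene of the whole table (0.00904%) had an adjusted p-value under 0.05. DESeq2 also gave 0 genes of the group after adjustment, and 8 at an unadjusted p-value under 0.05. Differences named below as past the unadjusted threshold are therefore not calls across the transcriptome.

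Of these 7 genes, 4 belonged to 1 gene cluster, that of the ferritin heavy-chain-like genes. Without the 5 genes of that family 3 of 31 remained (9.68%, against 5.32% of all genes). Since the members were chosen with earlier results of these data known, these shares describe the group and do not test it. The groups did not overlap for 4 of 36 members (11.1%), a share near the 9.64% of all genes tested, and these 4 were *fthl* genes. Across all genes, 338 were higher and 251 lower at the unadjusted threshold, and this split became 442 higher and 108 lower when libraries were scaled by total counts only.

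**Figure D1:**
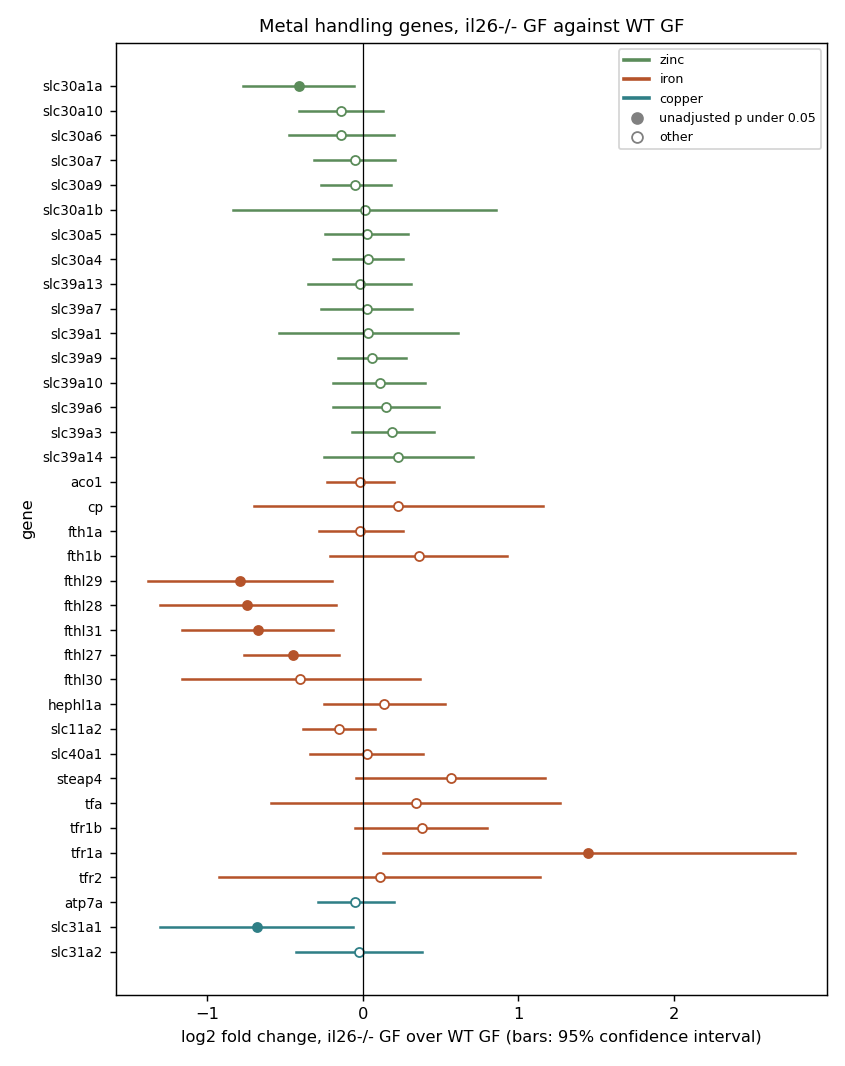
Log2 fold change of each tested metal handling gene in *il26*-/- GF over WT GF guts (horizontal axis, points) with its 95% confidence interval (lines), from edgeR's quasi-likelihood fit to 3 libraries per group. Most points lie near 0, whereas the *fthl* genes lie between -0.79 and -0.40 and *tfr1a* at 1.45 has a wide interval.

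Iron storage genes held most of the members past the unadjusted threshold. Ferritin is a hollow shell of protein subunits in which iron is oxidised and stored, and the heavy chain supplies the ferroxidase activity. The zebrafish table listed *fth1a* and *fth1b*, which encode heavy chains, and 5 heavy-chain-like genes, *fthl27*, *fthl28*, *fthl29*, *fthl30* and *fthl31*. All 5 *fthl* genes had a fitted fold change below 0 (100%, against 50.4% of all genes). Their median log2 fold change was -0.67, and -0.58 with total counts only. Of the 5, 4 were lower past the unadjusted threshold (80%, against 2.27% of all genes in that direction). The same 4 were without overlap between the groups (80%, against 9.64%). *fth1a* and *fth1b* were neither. Over the 17 iron genes tested, 5 passed the unadjusted threshold (29.4%, against 5.32%), 4 of them lower and 1 higher.

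*fthl27* was measured at 789, 817 and 620 CPM in WT GF replicates 1 to 3 and at 495, 579 and 554 CPM in *il26*-/- GF replicates 1 to 3. Every *il26*-/- GF library thus lay below every WT GF library, and WT GF replicate 3 was the closest to them. On the log2 scale the fold change was -0.45 ± 0.13 (SE), with a 95% confidence interval of -0.76 to -0.15 and an edgeR p-value of 0.00965 (adjusted p-value 0.643). This corresponded to 0.732 times the WT GF level.

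*fthl31* was measured at 50.0, 49.5 and 35.8 CPM in WT GF guts and at 21.0, 35.4 and 27.5 CPM in *il26*-/- GF guts. The groups were separated by a narrow gap, between WT GF replicate 3 and *il26*-/- GF replicate 2. Its log2 fold change was -0.67 ± 0.21 (95% confidence interval -1.16 to -0.19, edgeR p-value 0.013, adjusted p-value 0.676).

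*fthl28* had 22.7, 17.6 and 16.8 CPM in WT GF and 7.75, 15.3 and 10.3 CPM in *il26*-/- GF libraries. *fthl29* had 9.38, 8.15 and 5.84 CPM in WT GF and 3.44, 5.74 and 3.77 CPM in *il26*-/- GF libraries. In both genes *il26*-/- GF replicate 1 was lowest and replicate 2 came close to the lowest WT GF library. The fold changes were -0.74 ± 0.24 on the log2 scale for *fthl28* (edgeR p-value 0.0172, adjusted p-value 0.752) and -0.79 ± 0.25 for *fthl29* (edgeR p-value 0.0151, adjusted p-value 0.722).

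*fthl30* had the fewest reads of the 5 and was not past the threshold. Its levels were 3.11, 2.23 and 1.73 CPM in WT GF and 0.984, 1.89 and 2.20 CPM in *il26*-/- GF guts, and the groups overlapped. The log2 fold change was -0.40 ± 0.33 (edgeR p-value 0.264).

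The 5 *fthl* genes are 5 consecutive protein-coding genes in the RefSeq annotation of assembly GRCz12tu, in the order *fthl27*, *fthl28*, *fthl30*, *fthl31*, *fthl29*. None of the 38 members lies on the chromosome of *il26* in that annotation. Such neighbouring copies can be similar in sequence, and how the counting divided reads between copies is not given in the sources used here, so the 5 values may not be independent measurements. A sum does not depend on how reads were divided within the family. It would still change if shared reads had been discarded or counted more than once, which is not known. Together the 5 genes had 874, 894 and 680 CPM in WT GF and 529, 637 and 597 CPM in *il26*-/- GF guts. The group means were 816 ± 118 CPM in WT GF and 588 ± 55.0 CPM in *il26*-/- GF (SD, n = 3 each), a ratio of 0.720, and the groups did not overlap. Most reads of this sum belonged to *fthl27*.

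*fth1a* had a fitted fold change close to 0. Its levels were 1500, 1560 and 1580 CPM in WT GF guts and 1750, 1510 and 1350 CPM in *il26*-/- GF guts, with a log2 fold change of -0.014 ± 0.12 (95% confidence interval -0.28 to 0.26, edgeR p-value 0.908). The intervals of *fth1a* and *fthl27* overlapped. *fth1b* had 7.80, 8.35 and 11 CPM in WT GF and 16.4, 8.95 and 10.6 CPM in *il26*-/- GF libraries. Here *il26*-/- GF replicate 1 alone was high, and the log2 fold change of 0.36 ± 0.24 was not past the threshold (edgeR p-value 0.18).

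The *fthl* and *fth1a* levels were next compared within each library, where the scaling between libraries cancels. *fthl28* amounted to 1.51%, 1.13% and 1.06% of *fth1a* in WT GF and to 0.444%, 1.01% and 0.762% in *il26*-/- GF libraries, without overlap (two-sided exact permutation test, p = 0.1). *fthl27* amounted to 52.5%, 52.3% and 39.2% of *fth1a* in WT GF and to 28.4%, 38.5% and 40.9% in *il26*-/- GF libraries (two-sided exact permutation test, p = 0.2). WT GF replicate 3 lay below *il26*-/- GF replicate 3 in this measure, so the ratios overlapped. The ratios of *fthl29* and *fthl31* to *fth1a* also overlapped between the groups (two-sided exact permutation test, p = 0.2 for each). Of all ferritin counts, the *fthl* genes together made up 36.6%, 36.3% and 29.9% in WT GF libraries. In *il26*-/- GF libraries they made up 23.1%, 29.6% and 30.5%, which overlapped with WT GF, and no test was run on this share. With 3 libraries against 3 the smallest p-value that the exact test allows is 0.1, and the adjusted p-value over the 5 ratios tested was 0.2 for each (exact permutation test). The design thus could not pass a threshold of 0.05, and whether the *fthl* genes differ from *fth1a* in their response cannot be read from these tests.

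**Figure D2:**
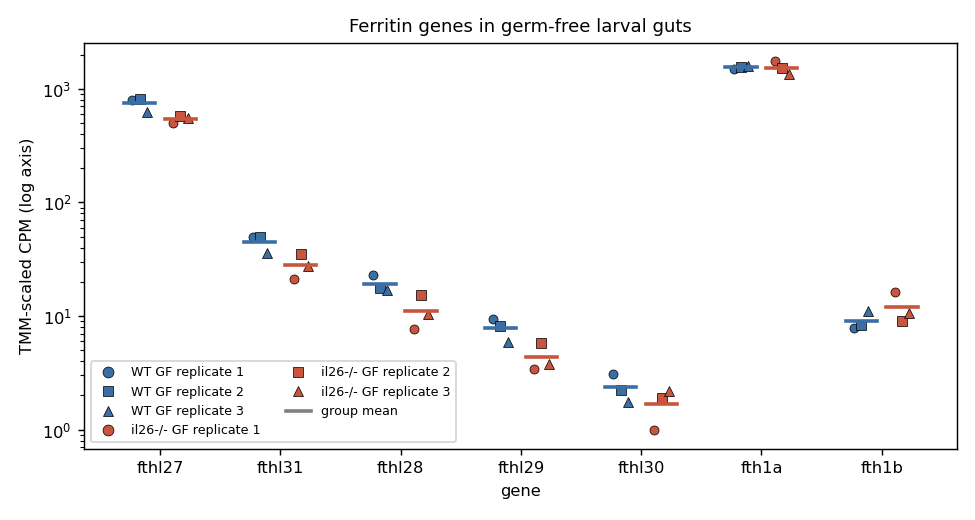
TMM-scaled CPM of the ferritin genes by library (points, vertical log axis) with the mean of each group (bar) in WT GF and *il26*-/- GF guts, 3 libraries each. The *il26*-/- GF points of *fthl27*, *fthl28*, *fthl29* and *fthl31* all lie below the WT GF points, whereas those of *fth1a*, *fth1b* and *fthl30* overlap with them.

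Single libraries weighed on these results. *il26*-/- GF replicate 1, the shallowest library, was the lowest of the 6 for all 5 *fthl* genes, and over the 36 members it was the highest of 6 for 12 (33.3%, against 18.8% of all genes tested) and the lowest for 8 (22.2%, against 19.8%). Its part in the result was not tested beyond leaving it out. Without it, *fthl27*, *fthl28*, *fthl29* and *fthl31* remained past the unadjusted threshold. When each library was left out in turn, *fthl27* (log2 fold change -0.57 to -0.37) and *fthl31* (-0.88 to -0.51) passed in 6 of 6 fits. *fthl28* and *fthl29* passed in 4 of 6 edgeR fits, with p-values of 0.0614 and 0.0547 without WT GF replicate 1 and of 0.0615 and 0.0575 without *il26*-/- GF replicate 3. Of 12 enterocyte markers, 9 were below 0 in the fitted fold change (75%, against 50.4% of all genes). The unadjusted threshold was passed by 1 of them (8.33%, against 5.32% of all genes). Their median log2 fold change was -0.090 with TMM and -0.0033 with total counts only, and their part in the ferritin values was not tested.

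The intestinal iron importer and exporter were not past the unadjusted threshold. *slc11a2*, the importer at the gut lumen (DMT1 in mammals), had 175, 176 and 150 CPM in WT GF and 146, 155 and 149 CPM in *il26*-/- GF guts. WT GF replicates 1 and 2 were the highest libraries, whereas replicate 3 lay among the *il26*-/- GF values. Its log2 fold change was -0.15 ± 0.10 (95% confidence interval -0.38 to 0.077, edgeR p-value 0.161), and without WT GF replicate 3 it was -0.23 (edgeR p-value 0.046). Only that 1 of the 6 fits with 1 library left out passed the unadjusted threshold. *slc40a1*, which encodes the iron exporter ferroportin, had 233, 226 and 198 CPM in WT GF and 276, 203 and 188 CPM in *il26*-/- GF guts. Its *il26*-/- GF libraries were thus both the highest and the lowest of the 6, and the log2 fold change was 0.025 ± 0.16 (95% confidence interval -0.34 to 0.39, edgeR p-value 0.876). The exporter stood at 133%, 128% and 132% of the importer in WT GF and at 189%, 131% and 127% in *il26*-/- GF libraries, where only replicate 1 stood apart.

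Ferroxidases and reductases change the charge of iron or copper so that it can be bound or transported. *hephl1a*, a multicopper ferroxidase related to hephaestin, had 11.1, 9.82 and 13.9 CPM in WT GF and 15.0, 11.8 and 11.9 CPM in *il26*-/- GF guts (log2 fold change 0.14 ± 0.17, edgeR p-value 0.428). *steap4*, which encodes a reductase of iron and copper in mammals, had 9.08, 13.7 and 11.1 CPM in WT GF and 11.3, 15.5 and 22.8 CPM in *il26*-/- GF guts. The highest value was that of *il26*-/- GF replicate 3, and *il26*-/- GF replicate 1 lay within the WT GF range. The log2 fold change of *steap4* was 0.57 ± 0.26 (95% confidence interval -0.040 to 1.17, edgeR p-value 0.0632). It passed the unadjusted threshold under other settings, with a p-value of 0.0374 in DESeq2, 0.0249 in edgeR with total counts only, 0.0354 without WT GF replicate 2 and 0.0168 without *il26*-/- GF replicate 1. With 1 library left out it passed in only 2 of 6 fits. Without *il26*-/- GF replicate 3 the log2 fold change was 0.28 (edgeR p-value 0.242). The edgeR p-values were 0.166 without WT GF replicate 1, 0.111 without WT GF replicate 3 and 0.087 without *il26*-/- GF replicate 2. *aco1*, which encodes a cytosolic aconitase that doubles as an iron regulatory protein in mammals, was the steadiest member, with 181, 167 and 159 CPM in WT GF, 166, 162 and 172 CPM in *il26*-/- GF guts and a highest value 1.14 times the lowest.

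Genes of iron in the circulation varied widely between pools of 1 genotype. *tfa*, which encodes transferrin, the iron carrier of plasma made in the liver, had 931, 3180 and 1810 CPM in WT GF and 2030, 2430 and 3040 CPM in *il26*-/- GF guts. *cp*, which encodes the plasma ferroxidase ceruloplasmin, had 127, 355 and 222 CPM in WT GF and 181, 254 and 390 CPM in *il26*-/- GF guts. *tfr2*, a receptor that senses transferrin iron in mammalian liver, had 3.95, 12.1 and 4.34 CPM in WT GF and 5.29, 6.99 and 9.24 CPM in *il26*-/- GF guts. All 3 genes were highest within WT GF in replicate 2 and lowest in replicate 1, and highest within *il26*-/- GF in replicate 3.

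The summed level of the 14 hepatocyte markers tested had the same order, with 3790, 9920 and 6130 CPM in WT GF and 5020, 6640 and 8890 CPM in *il26*-/- GF libraries. The unadjusted edgeR p-value was under 0.05 for 0 of these 14 markers. As a share of this sum *tfa* stood at 24.5%, 32.1% and 29.4% in WT GF and at 40.4%, 36.6% and 34.3% in *il26*-/- GF libraries, without overlap. Against the single hepatocyte marker *fabp10a*, however, *tfa* stood at 240%, 290% and 279% in WT GF and at 308%, 249% and 218% in *il26*-/- GF libraries, which overlapped. *tfr2* stood at 0.104%, 0.121% and 0.0707% of the marker sum in WT GF and at 0.105%, 0.105% and 0.104% in *il26*-/- GF libraries. No test was run on these shares, and the part of liver RNA in the 3 genes was not tested. The log2 fold changes were 0.34 ± 0.40 for *tfa* (95% confidence interval -0.59 to 1.27, edgeR p-value 0.416), 0.23 ± 0.40 for *cp* (-0.70 to 1.16, edgeR p-value 0.578) and 0.11 ± 0.44 for *tfr2* (-0.92 to 1.14, edgeR p-value 0.806). Intervals of this width include a doubling of the *tfa* level as well as no difference. Single libraries moved these values in both directions. Without WT GF replicate 2 the log2 fold change was 0.88 for *tfa* (edgeR p-value 0.0227) and 0.81 for *tfr2* (edgeR p-value 0.0131). Without WT GF replicate 1 it was 0.0089 for *tfa* and -0.15 for *tfr2*, and without *il26*-/- GF replicate 3 it was 0.18 for *tfa* and -0.091 for *tfr2*. Without WT GF replicate 3 it was 0.28 for *tfa* and -0.13 for *tfr2*.

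**Figure D3:**
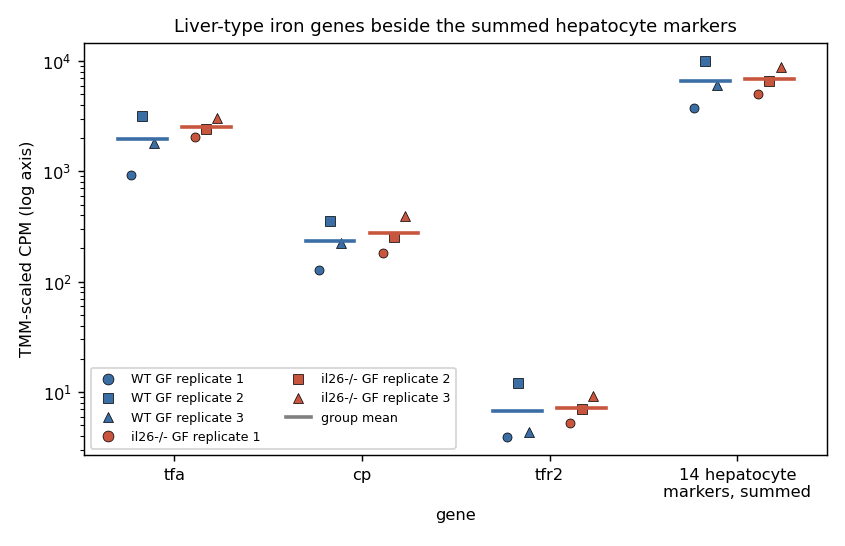
Transferrin, ceruloplasmin and *tfr2* levels by library beside the summed hepatocyte markers (TMM-scaled CPM on a vertical log axis, points are libraries, 3 per group, and bars are group means). WT GF replicate 2 is the highest and WT GF replicate 1 the lowest WT GF library for every gene and for the marker sum, and *il26*-/- GF replicate 3 is the highest of its group.

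Both genes of the receptor that brings transferrin-bound iron into cells had fitted fold changes above 0. *tfr1a*, which red cell precursors of zebrafish need for iron uptake, was the only member past the unadjusted threshold in the upward direction. It was sparsely read, with 33, 16 and 15 counts in WT GF and 25, 142 and 16 counts in *il26*-/- GF libraries, or 1.63, 0.810 and 0.489 CPM against 3.07, 3.62 and 1.01 CPM. *il26*-/- GF replicates 1 and 2 exceeded all WT GF libraries, whereas replicate 3 lay within the WT GF range. For *tfr1a* the log2 fold change was 1.45 ± 0.57 (95% confidence interval 0.13 to 2.78, edgeR p-value 0.0356, adjusted p-value 0.872), or 2.74 times the WT GF level. It passed in only 2 of 6 fits that left out 1 library, and was lost without WT GF replicate 2 (edgeR p-value 0.0766), WT GF replicate 3 (0.0954), *il26*-/- GF replicate 1 (0.0839) or *il26*-/- GF replicate 2 (0.181).

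*tfr1b*, the paralogous receptor gene, had 18.7, 19.7 and 22.9 CPM in WT GF and 33.6, 26.3 and 20.3 CPM in *il26*-/- GF guts. As with *tfr1a*, *il26*-/- GF replicate 3 lay within the WT GF range and the other two exceeded it. For *tfr1b* the log2 fold change was 0.38 ± 0.18 (95% confidence interval -0.049 to 0.80, edgeR p-value 0.0754), and without *il26*-/- GF replicate 3 it was 0.55 (edgeR p-value 0.00938). Only that 1 of the 6 fits with 1 library left out passed the unadjusted threshold. Without *il26*-/- GF replicate 1, the highest library, the log2 fold change was 0.19 (edgeR p-value 0.261).

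Of the 3 copper genes, only the importer *slc31a1* was past the unadjusted threshold, where it was lower (33.3%, against 2.27% of all genes in that direction and 5.32% in both). This gene, which encodes the high-affinity importer Ctr1, had 45.6, 40.9 and 29.7 CPM in WT GF and 31.1, 15.6 and 26.8 CPM in *il26*-/- GF guts. *il26*-/- GF replicate 2 was far lower than the rest, and the groups overlapped through WT GF replicate 3 and *il26*-/- GF replicate 1. The log2 fold change was -0.68 ± 0.27 (95% confidence interval -1.30 to -0.059, edgeR p-value 0.0358, adjusted p-value 0.872), or 0.624 times the WT GF level. It passed in 2 of 6 fits with 1 library left out. The log2 fold change was -0.42 without *il26*-/- GF replicate 2 (edgeR p-value 0.0751), and the edgeR p-values were 0.107 without WT GF replicate 1, 0.0742 without WT GF replicate 2, 0.056 without *il26*-/- GF replicate 3 and 0.052 with total counts only.

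*slc31a2*, which encodes a related protein that modulates copper uptake in mammals, had 21.5, 23.1 and 23.2 CPM in WT GF and 28.9, 20.8 and 17.7 CPM in *il26*-/- GF guts (log2 fold change -0.022, edgeR p-value 0.902). The *slc31a1* level as a percentage of *slc31a2* reached 213%, 177% and 128% across the WT GF libraries and 108%, 74.8% and 152% across the *il26*-/- GF libraries, and these values overlapped (two-sided exact permutation test, p = 0.2). *atp7a*, the pump that moves copper out of gut cells and into the secretory pathway, had 18.2, 17.8 and 20.0 CPM in WT GF and 19.8, 17 and 17.7 CPM in *il26*-/- GF guts. Its log2 fold change of -0.046 ± 0.10 had a 95% confidence interval of -0.29 to 0.20 (edgeR p-value 0.669).

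**Figure D4:**
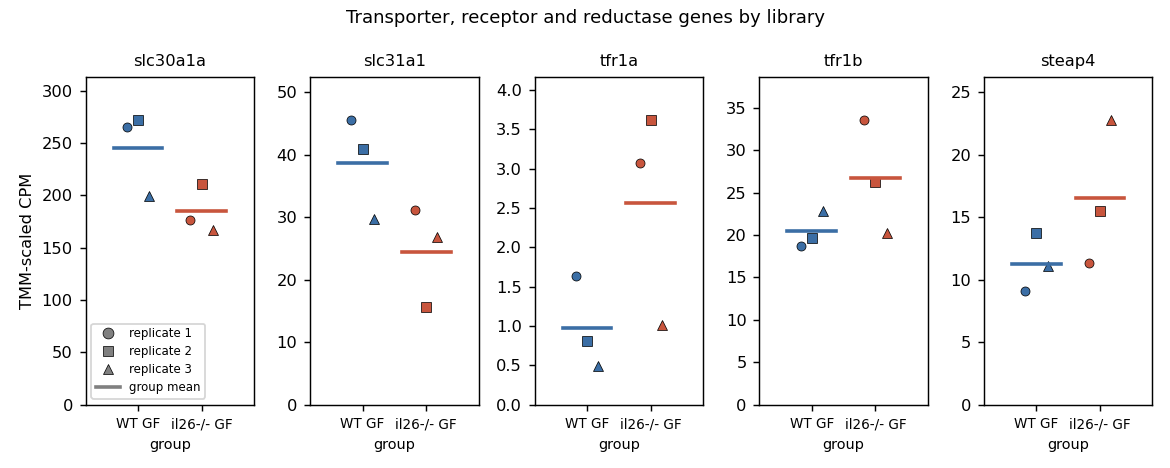
TMM-scaled CPM of single transporter, receptor and reductase genes in each library (points), with the group means (bars), for WT GF and *il26*-/- GF guts, 3 libraries each. *slc31a1* lies at 15.6 CPM in 1 *il26*-/- GF library, and *tfr1a* and *tfr1b* each have 1 *il26*-/- GF library within the WT GF range.

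Of the zinc genes, only 1 exporter was past the unadjusted threshold. *slc30a1a*, a zebrafish counterpart of ZnT1, which exports zinc across the plasma membrane, had 265, 272 and 199 CPM in WT GF and 176, 211 and 167 CPM in *il26*-/- GF guts. The lowest WT GF library, replicate 3, lay below *il26*-/- GF replicate 2, so the groups overlapped. Its log2 fold change was -0.41 ± 0.15 (95% confidence interval -0.77 to -0.053, edgeR p-value 0.0296, adjusted p-value 0.869), or 0.753 times the WT GF level. It passed in 2 of 6 fits, those without WT GF replicate 3 and without *il26*-/- GF replicate 2. The edgeR p-value was 0.0947 without WT GF replicate 1, 0.101 without WT GF replicate 2, 0.0881 without *il26*-/- GF replicate 1, 0.0983 without *il26*-/- GF replicate 3 and 0.0525 with total counts only.

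The paralogue *slc30a1b* was near the floor, with 0.543, 0.810 and 0.978 CPM in WT GF and 1.11, 0.816 and 0.566 CPM in *il26*-/- GF guts. Its log2 fold change of 0.015 ± 0.36 (edgeR p-value 0.968) left room for a wide range of values, from -0.83 to 0.86. *slc30a2*, another gene of the ZnT family, was not tested, having at most 9 counts in a library.

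Including *slc30a1a*, 8 ZnT genes were tested, and their log2 fold changes ran from -0.41 to 0.036 with a median of -0.050, which became 0.040 with total counts only. *slc30a4*, *slc30a5*, *slc30a6*, *slc30a7* and *slc30a9*, whose products in mammals act at vesicles, the secretory pathway or mitochondria, lay between -0.14 and 0.036. *slc30a10*, which exports manganese in mammals, was at -0.14 ± 0.12 (edgeR p-value 0.274).

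Zip importers were mostly above 0 in the fitted fold change, and none was past the unadjusted threshold. Of 8 tested, 7 were above 0 and 1 below (12.5%, against 50.4% of all genes), and with total counts only 8 were above and 0 below. With TMM the median log2 fold change was 0.084 and the range was -0.017 to 0.23. The smallest unadjusted edgeR p-value was 0.129, that of *slc39a3*. The highest, *slc39a14*, which carries iron and manganese as well as zinc in mammals, was at 0.23 ± 0.21 (edgeR p-value 0.302). Across all 16 zinc genes tested, 10 were above and 6 below 0, and 1 (6.25%) was past the unadjusted threshold, close to the 5.32% of all genes. With total counts only, 13 were above and 3 below 0, and 0 were past the threshold in edgeR.

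*mt2*, which encodes a metallothionein, a small protein that binds zinc and copper and whose gene is induced by zinc, was almost unread. It had 2 counts in all, both in WT GF replicate 3, and 0 counts in the other 5 libraries. The floor of 3 counts corresponded to 0.369 CPM in the shallowest library, *il26*-/- GF replicate 1, and no comparison was made. That floor does not cover gaps in the annotation used for counting, which is not given. Whether the annotation covered the *mt2* transcript fully cannot be told, so the low count does not show that the gene was hardly expressed.

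**Figure D5:**
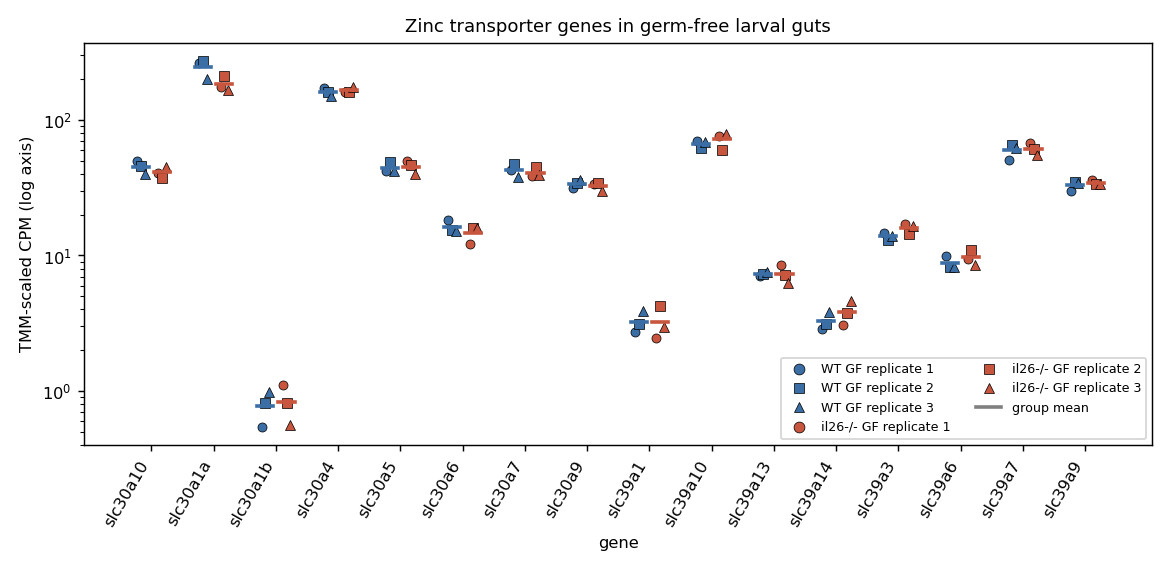
TMM-scaled CPM of the zinc transporter genes tested (vertical log axis) in each WT GF and *il26*-/- GF library (points). The 2 groups lie on top of each other for most genes, and *slc30a1a* is the gene with the lowest *il26*-/- GF values relative to WT GF.

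How far members varied within a genotype set how small a difference could be seen. The median SD of log2 CPM over the 36 members was 0.176 in WT GF and 0.230 in *il26*-/- GF libraries, against 0.166 and 0.176 over all genes tested. Over all 6 libraries, and thus with any difference between the genotypes included, the ratio of the highest to the lowest library ran from 1.14 for *aco1* to 7.41 for *tfr1a*.

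Further genes that use, sense or release these metals, from a list of 56 symbols of which 40 were tested, gave a direction that depended on the scaling. In the fitted fold change 13 were above and 27 below 0 with TMM, and 26 above and 14 below with total counts only. With TMM, 67.5% were below 0, against 50.4% of all genes, and the median log2 fold change was -0.043. At the unadjusted threshold 4 passed (10%, against 5.32%), 3 of them lower and 1 higher, and 0 passed after adjustment in edgeR. The groups did not overlap for 4 genes of this list (10%, against 9.64% of all genes).

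The gene that was higher was *alas1*, which encodes the first enzyme of heme synthesis outside red cells, with 603, 511 and 533 CPM in WT GF and 953, 722 and 633 CPM in *il26*-/- GF guts (log2 fold change 0.49 ± 0.16, edgeR p-value 0.0179, adjusted p-value 0.752). All *il26*-/- GF libraries exceeded all WT GF libraries, most of all replicate 1. *ncoa4*, whose mammalian product delivers ferritin to lysosomes so that its iron is released, was lower, with 193, 193 and 139 CPM in WT GF and 124, 137 and 136 CPM in *il26*-/- GF guts (log2 fold change -0.40 ± 0.14, edgeR p-value 0.0254, adjusted p-value 0.861). Its groups did not overlap, but WT GF replicate 3 lay only just above the *il26*-/- GF range.

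*isca1*, which takes part in the assembly of iron-sulphur clusters, was also lower without overlap, with 42.4, 48.6 and 34.9 CPM in WT GF and 25.5, 32.2 and 30.0 CPM in *il26*-/- GF guts (log2 fold change -0.51 ± 0.15, edgeR p-value 0.00877, adjusted p-value 0.615). *hmox2a*, which encodes a heme oxygenase, the kind of enzyme that frees iron from heme, had 44.0, 44.9 and 34.7 CPM in WT GF and 31.7, 36.5 and 30.7 CPM in *il26*-/- GF guts (log2 fold change -0.32 ± 0.13, edgeR p-value 0.0408, adjusted p-value 0.891). Here *il26*-/- GF replicate 2 exceeded WT GF replicate 3.

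*hamp*, the gene of the liver hormone hepcidin that closes ferroportin, had 20.3, 68.5 and 8.84 CPM in WT GF and 30.1, 30.9 and 40.7 CPM in *il26*-/- GF guts. WT GF replicate 2 was again the highest library, and the log2 fold change was 0.068. *mtf1*, the transcription factor that senses zinc and switches on metallothionein and ZnT1 genes in vertebrates, was at -0.17 (edgeR p-value 0.41).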

How the data were processed

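RNA from pooled guts was made into libraries with a stranded mRNA kit. Reads were aligned to danRer11, and the authors deposited their unnormalized counts for each gene symbol. The aligner, counting tool, annotation and strand setting are not given in the sources used here, so whether reads of overlapping antisense genes were separated is not known. Columns were matched to samples through the library names in the labels, and 0 columns were left unused. No pair of libraries of the same group agreed within sampling noise, and pairs across the groups were not compared.

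Genes were kept by edgeR's filterByExpr (11062 of 15419, of which 1837 had 0 counts everywhere), libraries were scaled by TMM, and the genotypes were compared by the quasi-likelihood test of edgeR with genotype as the only term and Benjamini-Hochberg adjustment over all genes tested (R 4.3.3, edgeR 4.0.16, limma 3.58.1). The SE was derived from each fold change with its F statistic, and the 95% confidence interval used the t distribution. Log2 CPM for the SDs used a prior count of 2. The floor of 3 counts covers counting error only. The sources do not say whether the pools came from separate clutches, so p-values measure the spread between pools. The scripts were tested on simulated data.

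Alternatives were DESeq2 1.42.0, DESeq2's size factors, total counts only, a filter of at least 1 count in any library or of 10 counts in every library, the replicate number as a block, and each library left out in turn. Values per library are given for members with an unadjusted p-value under 0.05, members without overlap, the 3 highest and 3 lowest log2 fold changes, and a list of 19 transporters, receptors, storage and plasma genes as far as analysed. *fthl30* met none of these rules and is given with the rest of its family. *slc31a2*, *aco1* and *hamp* were added after their values were seen. The members and lists were chosen with earlier results of these data known. Gene order was read from RefSeq (GRCz12tu), where 38 of 38 members matched. Since that is not the build of the deposited counts, no coordinates are given.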

Additional observations from a re-analysis of the deposited data

How the results depend on the processing

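No metal handling gene passed after adjustment under any alternative run. The count of members past the unadjusted threshold (7) was 6 to 8 with another test, scaling or filter and 3 to 7 with 1 library left out, lowest without WT GF replicate 1 and 4 without *il26*-/- GF replicate 3. Members without overlap (4) were 6 to 12 of 36 with 1 library left out, where fewer libraries make overlap rarer and 16.6% to 28.9% of all genes did not overlap. The median log2 fold change of the members (0.020) was 0.10 with total counts only, where that of all genes was 0.084, and -0.040 to 0.055 with 1 library left out. Over all genes, 589 were past the unadjusted threshold, and 441 to 1133 with 1 library left out, highest without WT GF replicate 3. After adjustment the count of all genes was 1, against 52 with DESeq2, 2 with total counts only, 4 with the filter of at least 1 count and 15 with the replicate block. For 19 named genes, 227 alternative values were computed. In 200 the side of the threshold was unchanged, and 18 lost and 9 gained the unadjusted threshold. The sign changed in 17 values of 6 genes (*atp7a*, *cp*, *fth1a*, *slc30a1b*, *slc40a1* and *tfr2*), in 0 of which either value was past the threshold.

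Replicate numbers in the labels come without a statement of what they share. Libraries of 1 number deviated together with correlations of 0.179, 0.0957 and 0.304 for replicates 1, 2 and 3. The main fit used no replicate block, since the paper's methods name none. With the block, 8 members and 788 of all genes were past the unadjusted threshold, the median log2 fold change of the members was -0.0035, and *steap4* passed (0.52, edgeR p-value 0.0307). Low counts limited *mt2* and *slc30a2*, which were not tested, and *slc30a1b*, *fthl30* and *tfr1a*.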

Other observations

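Embryonic beta-globin genes encode proteins that bind heme iron in red cells. They were named after their values were seen, and 0 of the 4 passed after adjustment in edgeR, while 3 had an unadjusted p-value under 0.05. The 4 genes belong to the erythrocyte marker list, of which 12 genes were tested, with a median log2 fold change of -0.016. These 3 were the only ones of the 12 past the unadjusted threshold (25%, against 5.32% of all genes). *hbbe1.1* had 18.2, 25.7 and 17.6 CPM in WT GF and 10.5, 12 and 10.6 CPM in *il26*-/- GF guts (log2 fold change -0.89 ± 0.17, edgeR p-value 0.000904, adjusted p-value 0.336). *hbbe1.3* had 8.73, 9.87 and 11.3 CPM in WT GF and 17.2, 18.4 and 13.8 CPM in *il26*-/- GF guts (log2 fold change 0.72 ± 0.15, edgeR p-value 0.00192, adjusted p-value 0.442). The groups did not overlap for either gene, nor for *hbbe1.2*. These were the only 3 of the 12 markers without overlap (25%, against 9.64% of all genes). *hbbe1.2* was at 0.37 ± 0.15 (edgeR p-value 0.0399, adjusted p-value 0.889) and *hbbe2* at -0.18 ± 0.17 (edgeR p-value 0.317). These genes are close paralogues, and how reads shared between them were counted was not tested.

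In proportion to the hepatocyte marker *fabp10a*, ceruloplasmin stood at 32.7%, 32.4% and 34.3% in WT GF and at 27.5%, 26.1% and 28.0% in *il26*-/- GF libraries, without overlap. In proportion to the summed hepatocyte markers it stood at 3.34%, 3.58% and 3.62% in WT GF and at 3.61%, 3.83% and 4.39% in *il26*-/- GF libraries, which overlapped. Of the 14 markers in that sum, *fabp10a* had the highest fitted log2 fold change (0.51), and 6 of the 14 were below 0. The lower share of *cp* against *fabp10a* was thus not seen against the marker sum, and no test was run on these shares.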
